A study of Mus musculus with 6 samples.

Results

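The 10 genes described here encode chemokines, and they are Ccl2, Ccl3, Ccl4, Ccl5, Ccl6, Ccl9, Ccl24, Cxcl2, Cxcl9 and Xcl1. They were chosen by measured differences between the genotypes in these same libraries, with earlier results known, so their wild-type against SIRT7-/- values are given as a description. Counts of members past the threshold of the main fit over all genes are printed beside the share of all genes that passed. Counts at an unadjusted p, or under alternative settings, have no such share at the same setting beside them. Nothing is read from any of these counts. All 10 were found among the 16623 genes of the table. The libraries came from whole livers of 6 mice aged 5 to 6 months, 3 wild-type (WT) and 3 SIRT7-/-, and no other allele or agent is named for either group. SIRT7-/- mice lack the histone deacetylase SIRT7 in the whole animal, so a difference in a liver cell cannot be assigned to the loss of SIRT7 in that cell. On a chow diet they develop a spontaneous steatohepatitis and serve as a model of it. From each liver 3000 hepatocytes and 3000 nonparenchymal cells were mixed and captured in droplets, where each RNA molecule is tagged with a unique molecular identifier (UMI). Sex and strain background of the 6 mice are not given in the sources used here.

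Chemokines are small secreted proteins that bind heparan sulfate on cell surfaces and steer leukocytes through G protein-coupled receptors. The CCL group mainly attracts monocytes, T cells, eosinophils and dendritic cells, the CXCL members with an ELR motif attract neutrophils through CXCR2, and the CXCL members without it, such as CXCL9, attract T and NK cells through CXCR3. In the liver, resident macrophages (Kupffer cells) are a known source of chemokines when hepatocytes are damaged, and CCL2 acting on CCR2 brings blood monocytes into the tissue.

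Most of the genes sit in clusters. On GRCm38 (GENCODE vM21 annotation) 6 of the 10 lie on chromosome 11, from Ccl2 at chr11:82035571-82037453 to Ccl4 at chr11:83662584-83664683, and all of these are 37 to 38.6 Mb from Sirt7 on the same chromosome. Ccl9 at chr11:83572919-83578636 and Ccl6 at chr11:83587882-83593087 are neighbours transcribed from the minus strand. Cxcl2 and Cxcl9 lie on chromosome 5 at chr5:90903871-90905938 and chr5:92321347-92328079, Ccl24 lies on chromosome 5 at chr5:135569937-135573049, and Xcl1 lies on chromosome 1 at chr1:164931644-164935527. RefSeq promoter sequence was at hand for 6 of the 10 genes, Xcl1, Cxcl2, Cxcl9, Ccl9, Ccl6 and Ccl3. The 4 printed here belong to Ccl6, Ccl9, Cxcl2 and Xcl1. The neighbours Ccl6 and Ccl9 were both lower in SIRT7-/- mice in F13a1/Prss34 cells, a cluster described below. Cxcl2 and Xcl1 are genes of different chromosomes and different cells. Each sequence runs 5′ to 3′ on the strand of its gene and lies within the 150 bases before the RefSeq start, without bases inside the GENCODE gene. Capitals mark matches to 1 of 5 motifs searched on both strands in the 150 bases: the kB core GGANNTTCC, the AP-1 site TGANTCA, the interferon gamma-activated site TTCNNNGAA, the TATA box TATAAA and the C/EBP site TTGCNNAA.
Cxcl2, chr5:90903749-90903870, plus strand: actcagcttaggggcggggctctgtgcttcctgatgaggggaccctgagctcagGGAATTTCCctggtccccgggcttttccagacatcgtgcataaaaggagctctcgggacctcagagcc
Ccl9, chr11:83578637-83578786, minus strand: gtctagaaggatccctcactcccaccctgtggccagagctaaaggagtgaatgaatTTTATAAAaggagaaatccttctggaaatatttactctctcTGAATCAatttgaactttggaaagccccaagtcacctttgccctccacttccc
Ccl6, chr11:83593088-83593237, minus strand: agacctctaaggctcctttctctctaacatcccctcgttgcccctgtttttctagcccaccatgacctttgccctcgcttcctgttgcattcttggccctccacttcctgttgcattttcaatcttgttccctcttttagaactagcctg
Xcl1, chr1:164935528-164935672, minus strand: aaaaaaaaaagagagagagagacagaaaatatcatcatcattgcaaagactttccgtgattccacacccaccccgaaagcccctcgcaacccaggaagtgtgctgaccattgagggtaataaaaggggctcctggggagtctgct

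The Cxcl2 window held the kB core from -96 to -88, counted from the RefSeq start. The first of its free bases is A here, so the other strand matches there too. Of 32851 mouse promoters 2.35% hold this motif in the same 150 bases. The Ccl9 window held TATAAA from -92 to -87, overlapping a match on the other strand from -94 to -89, and TGAATCA from -53 to -47. These motifs occur in 7.57% and 4.24% of all promoters. The interferon gamma-activated site and the C/EBP site, held by 4.09% and 5.46% of all promoters, were not found in the windows of the 6 genes.

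The table held 11610 cells, between 552 and 5609 per mouse, with 2511947 to 11069411 UMIs per mouse and a median of 1630 to 3875 UMIs per cell. Levels are given as CP10K, counts per 10000 UMIs of a cell, taken as the mean of all cells that 1 mouse has in a class. Sirt7 was lower in each SIRT7-/- mouse than in each WT mouse, at 0.718, 0.512 and 0.546 CP10K over all cells in WT mice 1 to 3 and at 0.1, 0.0814 and 0.139 CP10K in SIRT7-/- mice 1 to 3. Cells were grouped without the chemokine and chemokine receptor genes, and groups were named only from marker genes. Among the groups used here were 2604 macrophage-like cells, which had all 12 macrophage markers, 1277 T-like cells with all 11 T cell markers, 529 endothelial-like, 376 NK-like and 306 neutrophil-like cells. A cluster of 1129 cells held monocytes and dendritic cells together, had Prss34 and Mcpt8, which are known from basophils, among the leading genes of its parts, and is called F13a1/Prss34 cells after its leading genes. Of its cells, 16.9% to 34.2% per mouse were monocyte-like and 21.1% to 37.6% conventional dendritic-like. The remainder were Ace/Ly6i cells and Prss34/Mcpt8 cells, the latter led by Xcr1, Prss34, Mcpt8, Naaa and Clec9a. The leading genes of the Prss34/Mcpt8 cells held 4 listed conventional dendritic markers and 2 basophil markers. Of 10 basophil markers 0 counted as detected there, so the name does not mark them as basophils. They were left unnamed and are not part of the conventional dendritic-like share. SIRT7-/- mouse 1 gave 2002 of the macrophage-like cells, against 29 to 361 in the other mice, and 13 cell barcodes were shared by at least 2 libraries.

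By level per cell, in classes with at least 20 cells in a mouse, the leading sources of these chemokines fell into 2 blocks. These were macrophages and other myeloid cells for Ccl2, Ccl6, Ccl9, Ccl24, Cxcl2 and Cxcl9, and NK-like and T-like cells for Ccl5 and Xcl1. Ccl3 and Ccl4 were found in both. By share of UMIs, as a mean over mice, hepatocyte-like cells led for Ccl9 at 18.3% and for Cxcl9 at 21.8%. Pooled over mice they held 14.3% and 6.15%. The Cxcl9 share rests on few UMIs, and in WT mouse 1 a single cell held 24 of the 30 in hepatocyte-like cells. Their Cxcl9 level was 0.135 CP10K as a mean over mice. Over all cells, Ccl5 gave 19890 UMIs, Ccl6 10757, Ccl9 2777, Ccl24 2166, Xcl1 1911, Ccl4 1802, Cxcl9 1025, Ccl3 540, Ccl2 440 and Cxcl2 342. Values for the rarest of these therefore rest on few molecules per mouse. The levels below are means over the mice with at least 20 cells of a class. The classes are clusters of the same cells, so no test of levels between them is given.

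Ccl24, which attracts eosinophils and other CCR3-bearing cells, was at 3.2 ± 1.97 CP10K (SD, n = 3) in Fabp7/Mmp12 cells and at 3.06 ± 1.28 CP10K (n = 6) in macrophage-like cells, which do not differ beyond their spread. Fabp7/Mmp12 cells are a cluster of 312 cells that shares Clec4f, Vsig4 and Folr2 with the macrophage-like cells. Macrophage-like cells held 68.1% of all Ccl24 UMIs. Ccl6, a rodent CC chemokine that acts on CCR1, was highest in macrophage-like cells at 9.68 ± 3.06 CP10K (n = 6) and next in Retnla/Gdf3 cells at 8 ± 3.43 CP10K (n = 3), within the spread. Its neighbour Ccl9, another rodent CCR1 ligand, had a different order. It was highest in monocyte-like cells at 5.38 ± 0.611 CP10K (n = 3), above Ace/Ly6i cells at 3.43 ± 0.912 CP10K (n = 3) with no overlap of the mice, and it was at 0.827 ± 0.259 CP10K (n = 6) in macrophage-like cells.

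Ccl2 was low in each class with at least 20 cells in a mouse, at 0.541 ± 0.568 CP10K (n = 6) in macrophage-like cells and at 0.529 ± 0.568 CP10K (n = 3) in Ccna2/Pclaf cells, which are led by cell cycle genes. Higher levels were found in the 39 stellate-like cells, of which each mouse had 1 to 12. Ccl2 there was at 0, 1.4 and 7.33 CP10K in WT and at 1.94, 7.7 and 3.98 CP10K in SIRT7-/- mice, from 29 UMIs in all, or 6.59% of the Ccl2 UMIs. Cxcl2, a neutrophil attractant, led in neutrophil-like cells at 1.18 ± 1.52 CP10K (n = 3), where 1 of the 3 mice was at 0. Cxcl9, an interferon-gamma-induced ligand of CXCR3, led in conventional dendritic-like cells at 1.41 ± 1.64 CP10K (n = 3) and in monocyte-like cells at 1.15 ± 0.408 CP10K (n = 3). The spread of Ccl2, Cxcl2 and Cxcl9 over mice was as large as their means in the leading class, so the order of the classes was not resolved for these 3 genes.

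Ccl5, a T cell and monocyte attractant, was highest by far in NK-like cells at 92.3 ± 18.5 CP10K (n = 3), followed by T-like cells at 27.3 ± 13.5 CP10K (n = 5) with no overlap of the mice. Xcl1, which recruits XCR1-bearing dendritic cells, was also highest in NK-like cells at 10.6 ± 5.73 CP10K (n = 3), above T-like cells at 2.14 ± 0.53 CP10K (n = 5). Ccl3 and Ccl4, closely related attractants of monocytes and T cells, had their highest mean in NK-like cells too, at 1.22 ± 0.55 and 2.45 ± 1.69 CP10K (n = 3). The next classes, Prss34/Mcpt8 cells for Ccl3 at 0.709 ± 0.428 CP10K (n = 3) and plasmacytoid dendritic-like cells for Ccl4 at 2.03 ± 2.11 CP10K (n = 3), lay within the spread. Macrophage-like cells, being more numerous, held 28.3% of the Ccl3 UMIs and 45.9% of the Ccl4 UMIs. Ccl4 in plasmacytoid dendritic-like cells was at 0 CP10K in WT mouse 3, with 21 cells, and at 1.89 and 4.21 CP10K in SIRT7-/- mice 1 and 2, the only mice with over 20 such cells.

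**Figure D1:**
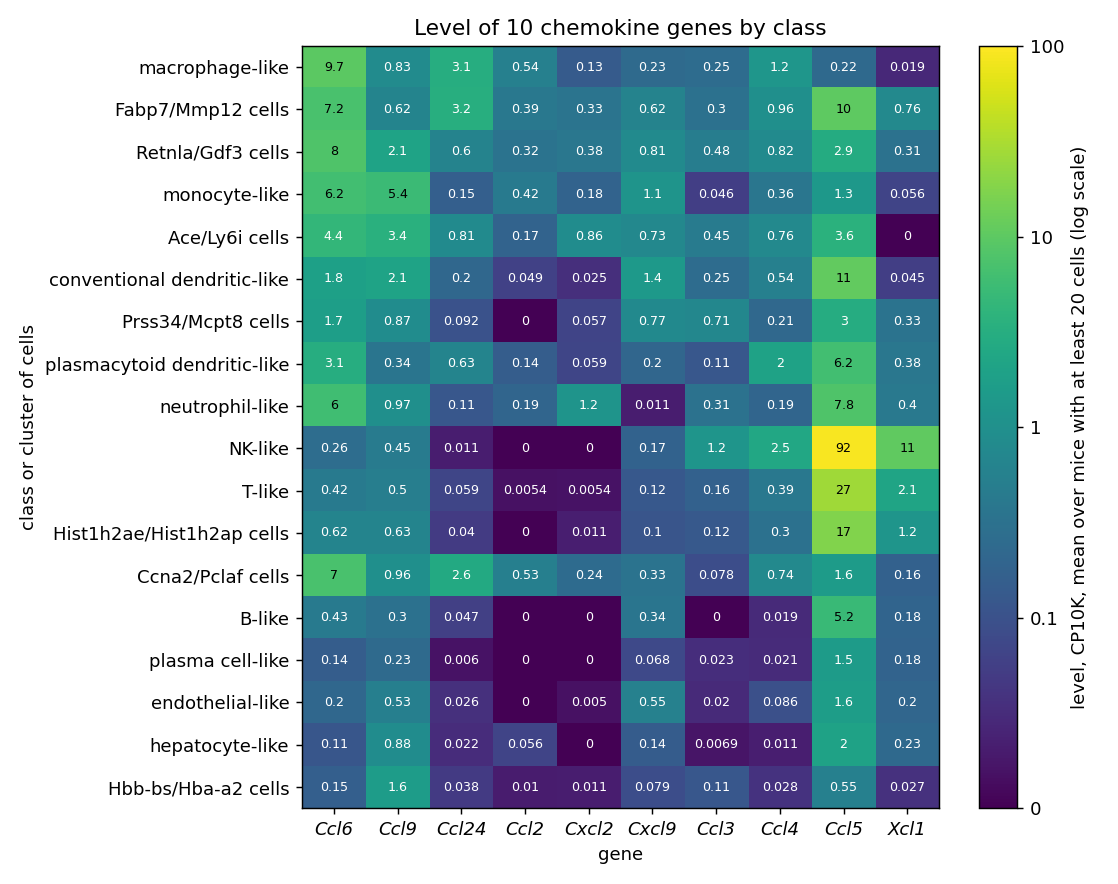
Level of the 10 chemokine genes (columns) in 18 groups of cells (rows), as mean CP10K over the mice with at least 20 cells of the group, with the color on a log scale and the value printed in each cell. The NK-like row holds the highest Ccl5, at 92.3 CP10K, and the highest Xcl1, at 10.6 CP10K, and the macrophage-like row the highest Ccl6, at 9.68 CP10K.

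Over the 69 pairs of a mouse and a group with at least 20 cells, the genes whose log2 level was most like that of a chemokine were for the most part markers of its source. Pearson's r is given as a description, since pairs share mice and clusters. For Ccl24 these were Lilra5 (r = 0.885), Clec4f (0.880) and Timd4 (0.880), the last pair being markers of resident Kupffer cells. For Ccl6 they were Cd300a (0.953), Cd300c2 (0.946) and Lrrc25 (0.946), and for Ccl9 they were Ifitm3 (0.664), Ifitm2 (0.623) and Sirpb1c (0.605). Ccl5 was most like Klrd1 (0.874), Ms4a4b (0.858) and Cd7 (0.828), and Xcl1 most like Ctsw (0.895), Il2rb (0.895) and Tcrg-C4 (0.878), genes known from T and NK cells. Some members paired with each other or with another chemokine. Ccl3 was most like Ccl4 (0.697), then Efhd2 (0.666) and Asb2 (0.638). Ccl4 was most like Rgs1 (0.779), and was like Dok2 (0.713). Cxcl2 was like Igsf6 (0.726), Ccl2 (0.693) and Pram1 (0.691), and Ccl2 like Fcgr1 (0.792), Tnfaip2 (0.762) and Fpr2 (0.761). Cxcl9 was most like Cxcl10 (0.682), another interferon-induced CXCR3 ligand, then Tnip3 (0.639) and Gm15056 (0.612).

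The comparison of the genotypes asks how chemokine RNA in liver leukocytes and endothelial cells differs in mice with spontaneous steatohepatitis. In macrophage-like cells Ccl24 was lower in SIRT7-/- mice and Ccl6 tended to be higher, while the inflammatory members Ccl2, Ccl3 and Ccl4 overlapped between the genotypes. Ccl24 was at 3.7, 4.96 and 3.63 CP10K in WT mice 1 to 3, from 90, 57 and 91 UMIs. In SIRT7-/- mice 1 to 3 it was at 1.85, 2.65 and 1.56 CP10K, from 898, 290 and 50 UMIs. All 3 SIRT7-/- mice lay below all 3 WT mice, and the WT mean was 2.03-fold that of the SIRT7-/- mice, a log2 difference of -1.02 ± 0.25 (SE, 3 against 3). Pooled over the cells of a mouse, the 95% Poisson intervals, which cover counting error only, reached down to 2.83 CP10K in WT mice and up to 2.78 CP10K in SIRT7-/- mice.

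The share of macrophage-like cells with a Ccl24 UMI, with each cell thinned to 1000 UMIs, was 26.9%, 33.7% and 32.1% in WT mice and 15.4%, 19.4% and 14.6% in SIRT7-/- mice. The 2 ranges did not overlap, and the share in hepatocyte-like cells, which should lack Ccl24, was at most 0.671% in any mouse. Median depths were 1924.5 to 5329 UMIs in macrophage-like and 1020.5 to 3805 UMIs in hepatocyte-like cells before thinning. Leaving out each mouse in turn moved the difference between -1.23 and -0.86. Without the cell that held most Ccl24 in each mouse, the levels were 3.07, 4.52 and 3.53 against 1.84, 2.55 and 1.44 CP10K, and the genotypes still did not overlap.

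Ccl6 was at 5.97, 6.28 and 11.4 CP10K in WT mice and at 9.05, 12.6 and 12.8 CP10K in SIRT7-/- mice, a difference of 0.59 ± 0.25 on the log2 scale. WT mouse 3 lay within the SIRT7-/- range, so the genotypes overlapped. Ccl9 was between 0.661 and 1.06 CP10K in WT mice and between 0.534 and 1.2 CP10K in SIRT7-/- mice. Its level did not move with that of Ccl6, its neighbour.

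Ccl4 in macrophage-like cells was at 1.7, 0.698 and 0.948 CP10K in WT mice and at 1.11, 2.51 and 0.498 CP10K in SIRT7-/- mice, with the highest and the lowest value both in SIRT7-/- mice. Ccl2 was at 0.221, 1.62 and 0.144 CP10K against 0.208, 0.729 and 0.328 CP10K, and the highest mouse was WT. Ccl3 ranged from 0.0971 to 0.523 CP10K in WT and from 0.0668 to 0.24 CP10K in SIRT7-/- mice. These 3 genes had no difference larger than the spread between mice.

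Cxcl9 was at 0, 0.0474 and 0.153 CP10K in WT mice and at 0.208, 0.891 and 0.0964 CP10K in SIRT7-/- mice. The WT values rest on 5 UMIs in all and the SIRT7-/- values on 139, 143 and 3 UMIs, of which 47 of those in mouse 2 were in 1 cell. Cxcl2 ranged from 0.0284 to 0.129 CP10K in WT and from 0 to 0.357 CP10K in SIRT7-/- mice. Ccl5, at 0 to 0.116 CP10K in WT and 0.015 to 0.59 CP10K in SIRT7-/- mice, was below its level in hepatocyte-like cells of the same mouse in all but WT mouse 2. Xcl1 was under the filter on low values in macrophage-like cells.

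Of the 9 members that passed the filter of a mean of 0.05 CP10K in macrophage-like cells, 0 passed an adjusted p of 0.05 in limma, against 0.227% of all 9701 genes. At an unadjusted p under 0.05 there were 4 members, without a share of all genes to set beside them. Leaving a gap between the genotypes, with SIRT7-/- lower, was seen for 1 member, Ccl24, and for 9.01% of all genes, and with SIRT7-/- higher for 0 members and 7.77% of all genes. Since the members were chosen for this contrast, nothing is read from these counts. Immediate-early and heat shock genes, which tissue digestion is known to induce, were lower in the same cells. Their summed level was 55.9 to 61.5 CP10K in WT and 35.4 to 44.2 CP10K in SIRT7-/- mice, with all 24 listed genes of the table above 0 and a median log2 difference of -0.49 over 23 genes fitted against -0.01 over all genes. The macrophage markers summed to 246 to 306 CP10K in WT and 315 to 365 CP10K in SIRT7-/- mice. The part of these in the Ccl24 difference was not tested.

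In the F13a1/Prss34 cells, the monocytes and dendritic cells, Ccl2, Ccl4 and Cxcl2 were higher in SIRT7-/- mice and Ccl6 and Ccl9 lower. The higher genes were rare and the lower ones abundant. Ccl6 was at 5.14, 5.14 and 4.27 CP10K in WT mice and at 2.52, 3.24 and 3.37 CP10K in SIRT7-/- mice, a log2 difference of -0.67 ± 0.23 with no overlap. Ccl9 was at 4.67, 3.81 and 2.97 CP10K in WT mice and at 2.44, 2.97 and 2.7 CP10K in SIRT7-/- mice, -0.47 ± 0.24. The genotypes did not overlap for Ccl9, but WT mouse 3 and SIRT7-/- mouse 2 differed by less than rounding. In macrophage-like cells the Ccl6 difference had the other sign. Between the classes, compared within each mouse, the log2 differences lay 1.26 apart and did not pass (limma, adjusted p = 0.81). Of 8752 genes 0 passed this comparison.

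The parts of the cluster differed in how far the genotypes lay apart. In monocyte-like cells Ccl6 was at 9.55, 5.21 and 7.54 CP10K in WT and at 5.16, 5.99 and 3.46 CP10K in SIRT7-/- mice. In conventional dendritic-like cells Ccl9 was at 3.25, 2.62 and 2.94 CP10K in WT and at 1.64, 1.76 and 1.66 CP10K in SIRT7-/- mice, of which mouse 3 had 8 cells, without overlap. In Ace/Ly6i cells Ccl6 at 2.16 to 6.26 CP10K in WT and 3.14 to 6.07 CP10K in SIRT7-/- mice overlapped. In Prss34/Mcpt8 cells Ccl6 was at 5.37, 13.4 and 2.97 CP10K in WT and at 0.763, 1.49 and 0.387 CP10K in SIRT7-/- mice, but only 8 and 9 cells came from WT mice 1 and 2 and 5 from SIRT7-/- mouse 3, and a single cell held all 8 UMIs of WT mouse 1. How many of the cells belong to each part also differed between mice, and its share in the pooled difference was not tested.

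Ccl2, the ligand of the monocyte receptor CCR2, was at 0, 0.0585 and 0.0618 CP10K in WT mice and at 0.226, 0.174 and 0.924 CP10K in SIRT7-/- mice, a log2 difference of 2.21 ± 0.59. These are 0, 1 and 2 UMIs against 17, 7 and 17 UMIs, in 7, 6 and 3 cells of the SIRT7-/- mice. Cxcl2 was at 0.0439, 0 and 0.0506 CP10K against 0.529, 0.0884 and 0.218 CP10K, 1.84 ± 0.60, and in SIRT7-/- mouse 3 it rested on 1 UMI. Ccl4 was at 0.204, 0.299 and 0.107 CP10K against 0.932, 0.359 and 2.17 CP10K, 2.0 ± 0.52. All 3 genes lay higher in each SIRT7-/- mouse than in each WT mouse.

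A few cells carried these differences. Of the 61 Ccl4 UMIs of SIRT7-/- mouse 3, 53 were in 1 cell, among the Prss34/Mcpt8 cells. Without the top cell of each mouse, Ccl4 was at 0.0737, 0.197 and 0.0799 CP10K in WT and at 0.681, 0.295 and 0.421 CP10K in SIRT7-/- mice, still without overlap. Without its top cells Ccl2 was at 0, 0 and 0.0343 against 0.149, 0.114 and 0.538 CP10K, again without overlap. Cxcl2 was then at 0, 0 and 0.0298 against 0.398, 0.0651 and 0 CP10K, and the genotypes overlapped. In SIRT7-/- mouse 1, 31 of the 36 Cxcl2 UMIs were in 6 of the 105 Ace/Ly6i cells of that mouse.

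Of 9 members fitted in the F13a1/Prss34 cells 0 passed the threshold, with 4 at an unadjusted p under 0.05, and 0.021% of all 9508 genes passed. The genotypes did not overlap for 3 members higher in SIRT7-/- mice, against 4.12% of all genes, and for 2 members lower, against 6.95%. Ccl3, Ccl5, Ccl24 and Cxcl9 overlapped. Ccl5 was at 3.61, 6.83 and 1.91 CP10K in WT and at 4.15, 10.3 and 1.74 CP10K in SIRT7-/- mice. Cxcl9 was at 0.0201, 0.485 and 0.684 CP10K in WT and at 0.51, 1.93 and 0.219 CP10K in SIRT7-/- mice, and in mouse 2 most of it came from conventional dendritic-like cells, at 3.3 CP10K. Of the parts of the cluster, with mice down to 10 cells, the fits put 1 of 9 members past the threshold in monocyte-like cells, Ccl5, against 0.339% of all genes, and 0 of 7 in conventional dendritic-like cells, with 4 at an unadjusted p under 0.05, against 0.0644%. Ccl5 in monocyte-like cells was at 0, 0 and 0.217 CP10K in WT and at 1.6, 2.2 and 3.41 CP10K in SIRT7-/- mice. Hepatocyte-like cells of SIRT7-/- mice 1 and 2 held more, at 3.08 and 7.19 CP10K, and all 16 UMIs of SIRT7-/- mouse 3 were in 1 cell. Without that mouse, or with the mean of the natural log values, the count in these cells was 0.

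**Figure D2:**
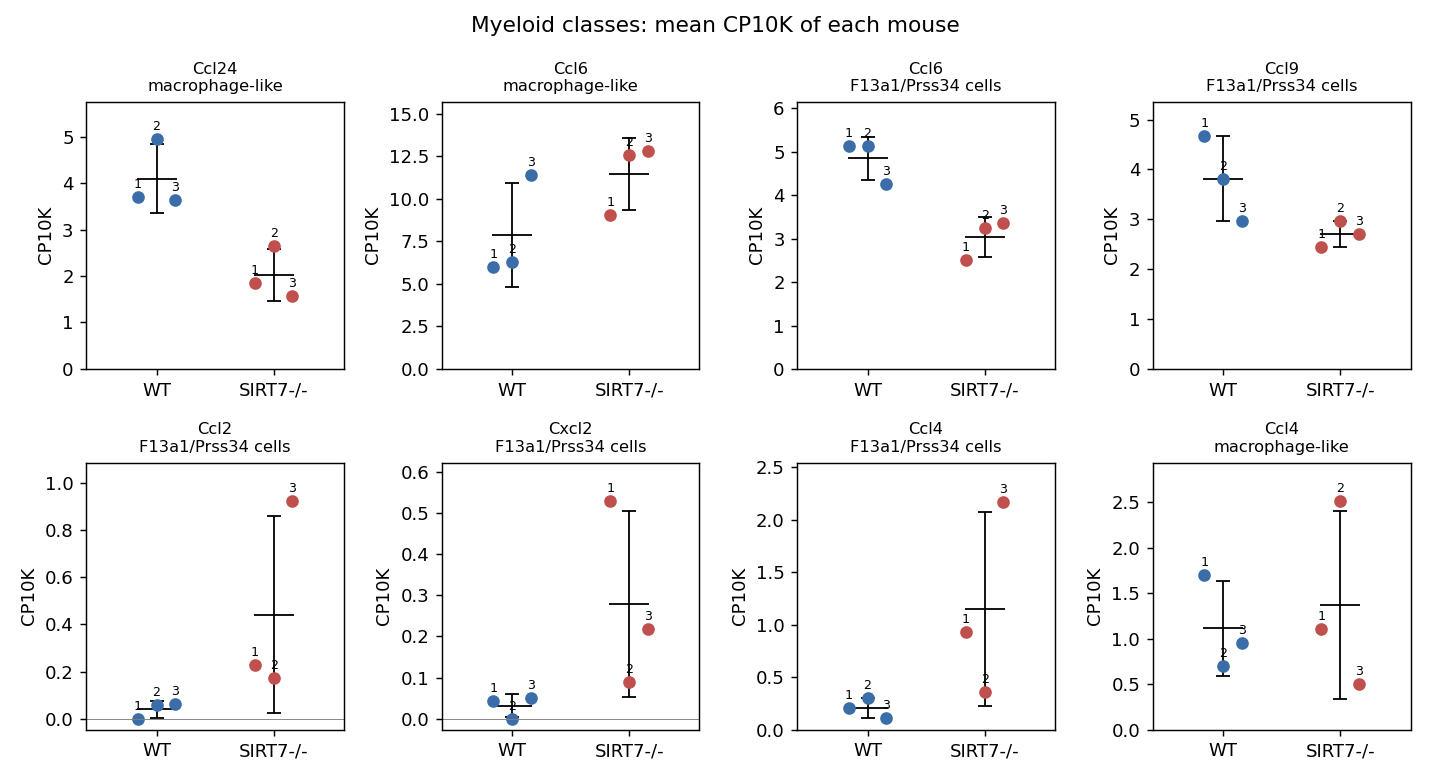
Mean CP10K (y axis, from 0) of each mouse, numbered 1 to 3, in WT and SIRT7-/- mice for 6 chemokine genes in macrophage-like cells or F13a1/Prss34 cells, with a bar at the mean and SD over 3 mice. Ccl24 in macrophage-like cells lies at 3.63 CP10K or more in WT and at 2.65 CP10K or less in SIRT7-/- mice, while Ccl4 in the F13a1/Prss34 cells is spread by SIRT7-/- mouse 3 at 2.17 CP10K.

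In NK-like cells Xcl1, and at lower levels Ccl3, were higher in SIRT7-/- mice, while the high level of Ccl5 differed by less than the spread between mice. Only 3 mice had at least 20 NK-like cells, so values are given for all 6, with 13, 18 and 25 cells in WT and 199, 108 and 13 cells in SIRT7-/- mice. Xcl1 was at 3.93, 8.01 and 3.98 CP10K in WT mice, from 14, 41 and 15 UMIs, and at 13.9, 14 and 12.1 CP10K in SIRT7-/- mice, from 288, 241 and 59 UMIs. Each SIRT7-/- mouse lay above each WT mouse, and with mice down to 10 cells the log2 difference was 1.40 ± 0.30 (SE, 3 against 3). Pooled per mouse, the 95% Poisson interval of WT mouse 2 was 6.36 to 12 CP10K and overlapped those of the 3 SIRT7-/- mice, whose lower bounds were 11, 10.6 and 10.9 CP10K.

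A single cell held 25 of the 59 Xcl1 UMIs of SIRT7-/- mouse 3, and without the top cell of each mouse the levels were 3.35, 7.25 and 3.79 CP10K in WT and 12.6, 13.5 and 7.73 CP10K in SIRT7-/- mice, still without overlap. In hepatocyte-like cells, which should lack it, Xcl1 was at 0.0117, 0.0195 and 0 CP10K in WT and at 0.38, 0.92 and 0.0208 CP10K in SIRT7-/- mice. Plasma cell-like cells had 0 and 0.026 CP10K in WT mice 2 and 3 and 0.337 and 0.36 CP10K in SIRT7-/- mice 1 and 2. Off its sources Xcl1 was therefore also higher in these mice, at levels under those of their NK-like cells, and the part of this in the NK-like difference was not tested. In T-like cells, the other source, Xcl1 was at 1.62, 2.43 and 1.79 CP10K in WT and at 2.92 and 1.95 CP10K in SIRT7-/- mice 1 and 2, and these overlapped. SIRT7-/- mouse 3 was at 4.67 CP10K with 17 T-like cells, where 52 of 67 UMIs were in 1 cell.

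Ccl3 in NK-like cells was at 0.377, 0.334 and 0.697 CP10K in WT and at 1.79, 1.16 and 1.05 CP10K in SIRT7-/- mice, 1.44 ± 0.65 on the log2 scale. The WT values stand for 1, 2 and 2 UMIs and that of SIRT7-/- mouse 3 for 3 UMIs in 1 cell, without which this mouse was at 0 and the genotypes overlapped. Ccl4 was at 1.28, 0.988 and 0.624 CP10K against 3.95, 2.77 and 1.22 CP10K, 1.31 ± 0.51, and SIRT7-/- mouse 3 lay below WT mouse 1. Ccl5 was at 129, 96.1 and 71.3 CP10K in WT and at 99.1, 106 and 87.2 CP10K in SIRT7-/- mice, a log2 difference of 0.02 with a 95% interval from -0.25 to 0.29.

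Of 7 members fitted in NK-like cells 1 passed the threshold, Xcl1, and 0.416% of all 9604 genes did, from which nothing is read since the members were chosen for this contrast. Without SIRT7-/- mouse 2 or without mouse 3 the count was 0. Members without overlap and higher in SIRT7-/- mice numbered 2, Xcl1 and Ccl3, against 7.4% of all genes, and 0 were lower, against 4.51%. Of the NK cell markers, Gzma was at 53.4, 55 and 48.7 CP10K in WT and at 21.7, 47.8 and 49.3 CP10K in SIRT7-/- mice, and Ncr1 at 10.7 to 16.6 CP10K in WT and 12.2 to 24.6 CP10K in SIRT7-/- mice. The listed markers did not move together. Klrk1 was at 7.98, 7.39 and 3.19 CP10K in WT and at 8.38, 8.5 and 11 CP10K in SIRT7-/- mice. Prf1 was at 4.67, 3.18 and 3.59 against 1.03, 2.74 and 3.89 CP10K. Cd3e, which NK cells lack, was between 0.268 and 2.47 CP10K in the class. The part of the makeup of the class in the Xcl1 difference was not tested.

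In T-like cells Ccl5 was higher in the 2 SIRT7-/- mice with enough cells. It was at 18.6, 21.5 and 14.3 CP10K in WT mice and at 35.5 and 46.7 CP10K in SIRT7-/- mice 1 and 2, 2.27-fold in the means and 1.19 ± 0.19 on the log2 scale (3 against 2). SIRT7-/- mouse 3, left out with 17 cells, was at 14.2 CP10K, within the WT range. With it in the fit, the log2 difference was 0.68. The share of T-like cells with a Ccl5 UMI after thinning to 1000 UMIs was 31.9%, 44.4% and 38.8% in WT and 55.6% and 71.9% in SIRT7-/- mice.

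Ccl5 RNA was also found in cells that should lack it, and more of it in these same 2 mice. Hepatocyte-like cells had 0.697, 0.0177 and 0.751 CP10K in WT mice and 3.08, 7.19 and 0.338 CP10K in SIRT7-/- mice. Their share with a Ccl5 UMI after thinning was 0.398%, 0.182% and 7.81% in WT and 7.95%, 25.4% and 1.02% in SIRT7-/- mice. In WT mouse 1, however, 119 of the 121 Ccl5 UMIs of hepatocyte-like cells were in 1 cell, as were 51 of 65 in SIRT7-/- mouse 3, whereas the 72 UMIs of SIRT7-/- mouse 2 were spread over 12 of its 62 cells. Endothelial-like cells had 0.105, 0 and 1.04 CP10K in WT and 3.3 and 3.82 CP10K in SIRT7-/- mice 1 and 2. Plasma cell-like cells had 0 and 0.239 CP10K in WT mice 2 and 3 and 2.46 and 3.42 CP10K in SIRT7-/- mice 1 and 2.

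After subtraction of the level in hepatocyte-like cells of the same mouse, Ccl5 in T-like cells was 17.9, 21.5 and 13.5 CP10K in WT and 32.4 and 39.5 CP10K in SIRT7-/- mice 1 and 2, and these did not overlap. In macrophage-like, endothelial-like and plasma cell-like cells of SIRT7-/- mouse 2 the subtracted level was -6.61, -3.37 and -3.77 CP10K, below 0. Cd8a in T-like cells, the coreceptor of cytotoxic T cells, was at 0.419, 0.605 and 0.307 CP10K in WT and at 0.487 and 1.41 CP10K in SIRT7-/- mice 1 and 2. All 10 listed NK cell markers were above 0 in T-like cells, with a summed level of 5.07 to 6.83 CP10K in WT and 6.34 to 7.83 CP10K in these SIRT7-/- mice. Of the 10, 4 lay higher in both SIRT7-/- mice than in each WT mouse, 2 lower, and 4 overlapped. Ncr1 was at 0, 0 and 0.0966 CP10K in WT and at 0.916 and 0.22 CP10K in SIRT7-/- mice, and the granzyme gene Gzma at 0.14, 0.57 and 0 against 0.884 and 1.49 CP10K. Klrb1c, an NK and NKT cell receptor, was at 1.67, 1.25 and 2.39 against 0.652 and 0.709 CP10K. The part of NK cells and T cell subsets in the Ccl5 difference was not tested.

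Of 8 members fitted in T-like cells 1 passed the threshold, Ccl5, and 0.182% of all 9900 genes did. As in the other classes the contrast had chosen the members, and nothing is read from the count. The count was 0 without WT mouse 1 or WT mouse 2, and 2 without WT mouse 3 (Ccl5 and Ccl6) or SIRT7-/- mouse 2 (Ccl4 and Ccl5). The 5 mice did not overlap for 2 members higher in SIRT7-/- mice, Ccl5 and Cxcl9, against 8.05% of all genes, and for 1 lower, Ccl9, against 12.5%. Cxcl9 was at 0.0447, 0.0208 and 0 CP10K in WT and at 0.162 and 0.364 CP10K in SIRT7-/- mice, where 9 of 15 and 30 of 57 UMIs were in 1 cell each. Ccl9, at 0.622, 0.653 and 0.463 CP10K in WT and 0.375 and 0.372 CP10K in SIRT7-/- mice, was below its level in hepatocyte-like cells in the WT mice.

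**Figure D3:**
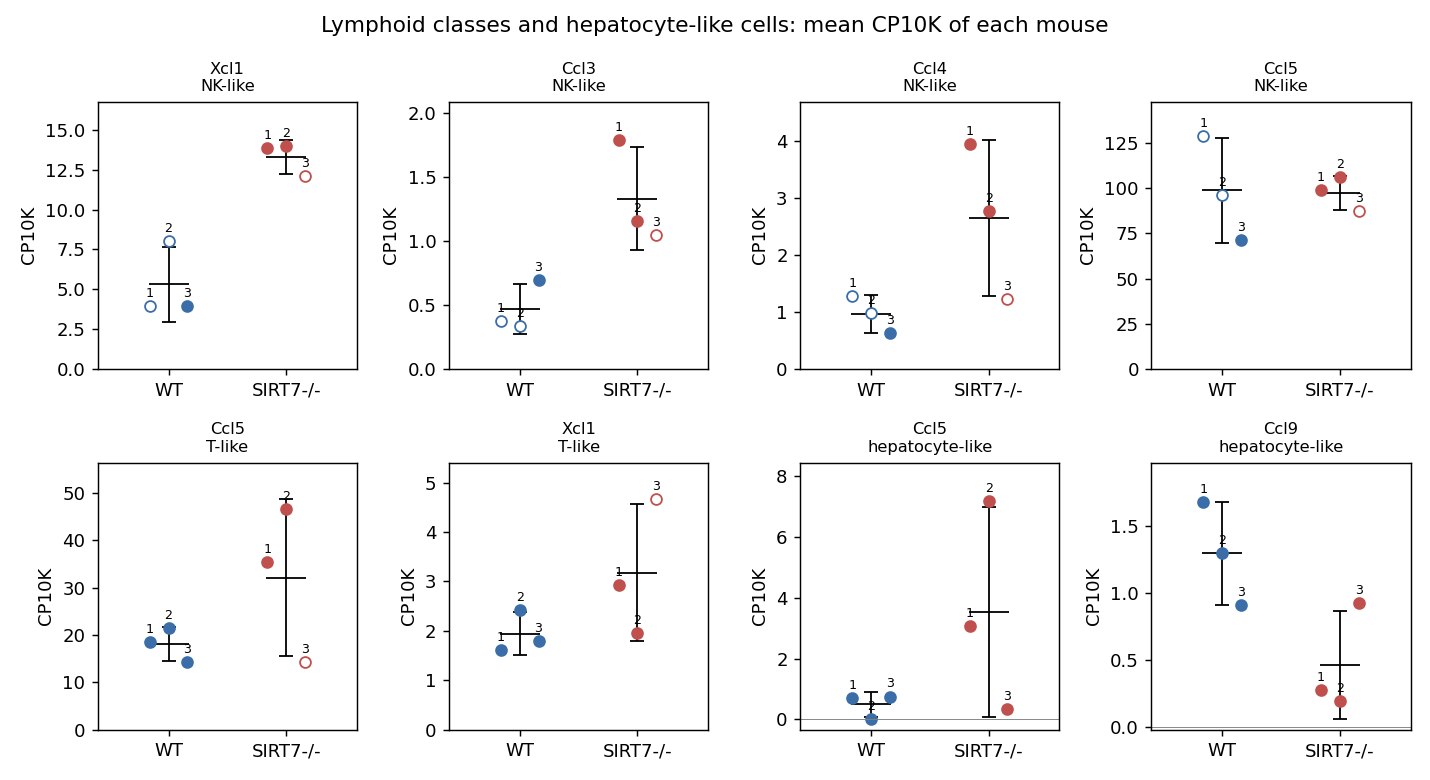
Mean CP10K (y axis, from 0) of each mouse, numbered 1 to 3, for chemokine genes in NK-like, T-like and hepatocyte-like cells, with a bar at the mean and SD of all 3 mice and open symbols for mice with fewer than 20 cells of the class. Xcl1 in NK-like cells lies at 8.01 CP10K or less in WT and at 12.1 CP10K or more in SIRT7-/- mice, and Ccl5 in hepatocyte-like cells is highest in SIRT7-/- mouse 2, at 7.19 CP10K.

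Neutrophil-like cells numbered 23, 9 and 15 in WT and 221, 21 and 17 in SIRT7-/- mice. The attractants Ccl3, Ccl4 and Cxcl2 gave 0 UMIs in these WT cells, which allows pooled levels of up to 1.04, 3.67 and 1.27 CP10K in WT mice 1 to 3 (95% Poisson limits). In SIRT7-/- mice Ccl3 was at 0.197, 0.735 and 6.43 CP10K, from 7, 6 and 13 UMIs in 6, 2 and 3 cells, Ccl4 at 0.125, 0.456 and 3.12 CP10K, and Cxcl2 at 0.662, 2.89 and 0 CP10K. Pooled over cells, these 3 genes reached at most 2.89 CP10K in a SIRT7-/- mouse, under the limit of WT mouse 2 with its 9 cells. That value was above the limits of WT mice 1 and 3. Ccl5 was at 0, 0 and 0.748 CP10K in WT and at 12.5, 10.9 and 0 CP10K in SIRT7-/- mice. Ccl6 was at 10.9, 9.02 and 4.75 CP10K in WT and at 3.4, 3.69 and 8.07 CP10K in SIRT7-/- mice and overlapped. With mice down to 10 cells, 0 of 9 members passed the threshold, with 3 at an unadjusted p under 0.05, and 0.0335% of all genes did.

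Endothelial-like cells held little chemokine RNA of these 10 genes. Cxcl9 was at 0.719, 0.114 and 0.33 CP10K in WT and at 0.646 and 0.954 CP10K in SIRT7-/- mice 1 and 2, with overlap. Of 6 members fitted 0 passed the threshold, with 2 at an unadjusted p under 0.05, and 0.262% of all genes passed. In B-like cells, compared in 2 against 2 mice, 0 of 5 members passed, none had an unadjusted p under 0.05, and 0.0108% of all genes passed. In plasma cell-like cells, also in 2 against 2 mice, 0 of 5 members passed, with 3 at an unadjusted p under 0.05, and 0.0782% of all genes passed. Those 3 were Ccl5, Ccl6 and Xcl1, each at or below 3.42 CP10K in every mouse. In SIRT7-/- mice 1 and 2 their Ccl5 and Xcl1 levels were at or below those of hepatocyte-like cells.

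Ccl9 was also found in hepatocyte-like cells, in many cells with few UMIs each. It was at 1.68, 1.3 and 0.912 CP10K in WT and at 0.273, 0.192 and 0.928 CP10K in SIRT7-/- mice. WT mice 1 and 2 held it in 108 of 340 and 78 of 255 cells, at most 7 UMIs in a cell, and SIRT7-/- mouse 3 in 72 of 276 cells. SIRT7-/- mouse 3 lay within the WT range, so the genotypes overlapped. As a mean over mice, hepatocyte-like cells held 18.3% of the Ccl9 UMIs, Hbb-bs/Hba-a2 cells 14.7%, and macrophage-like cells 13.4%. Pooled over mice, where SIRT7-/- mouse 1 gave most macrophage-like cells, the shares were 14.3%, 13.9% and 19%. The Hbb-bs/Hba-a2 cells were led by hemoglobin genes and then by Fabp1, a listed hepatocyte marker. Of 6 erythroid markers 0 counted as detected there, and hepatocyte was the next best class. The cluster was left unnamed, and its Ccl9 is not assigned to erythroid cells.

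**Figure D4:**
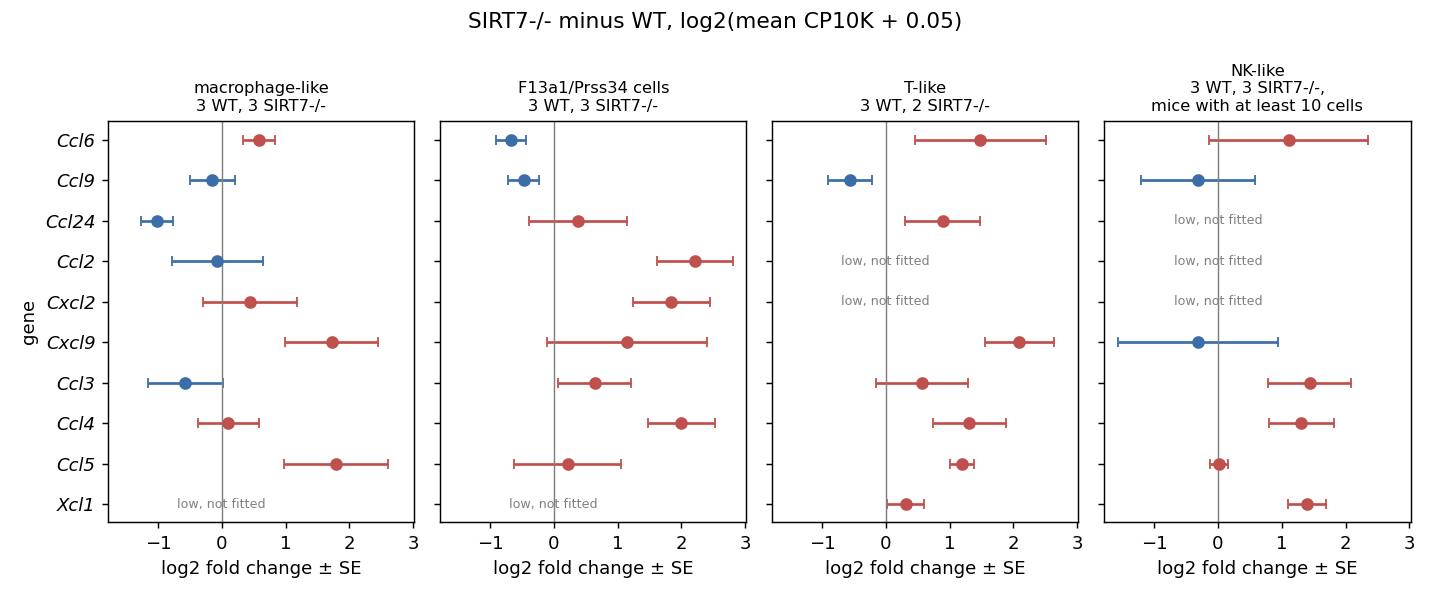
Log2 fold change, SIRT7-/- minus WT, of the mean CP10K plus 0.05 of each mouse (x axis, point and SE) for each of the 10 chemokine genes (y axis) in macrophage-like, F13a1/Prss34, T-like and NK-like cells, in red above 0 and in blue below 0. Ccl6 lies above 0 in macrophage-like cells, at 0.59, and below 0 in F13a1/Prss34 cells, at -0.67.

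The receptor genes of these ligands differed in the class where they were highest. Ccr2 was highest in monocyte-like cells at 13.7 CP10K, Cxcr2 and Ccr1 in neutrophil-like cells at 4.82 and 2.03 CP10K, Xcr1 in Prss34/Mcpt8 cells at 3.94 CP10K and Cxcr3 in T-like cells at 2.1 CP10K. Ccr3, the CCL24 receptor, reached at most 0.251 CP10K, in macrophage-like cells. Receptors and other ligands, listed as pathway genes with earlier results of these data known, were tested between the genotypes. Of the 28 other ligands and 23 receptors listed, 18 and 22 were in the table. In each of the 6 compared classes 0 of those fitted passed an adjusted p of 0.05 in limma. Counts at an unadjusted p follow without a share of all genes, and nothing is read from them. At an unadjusted p under 0.05 there were 3 of 8 ligands and 2 of 8 receptors in macrophage-like cells, 1 of 8 and 4 of 12 in F13a1/Prss34 cells, 2 of 8 and 3 of 11 in T-like cells, 1 of 5 and 0 of 12 in endothelial-like cells, 0 of 6 and 1 of 10 in B-like cells, and 0 of 6 and 2 of 8 in plasma cell-like cells.

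The most abundant other ligand genes in macrophage-like cells, with their log2 differences, were Cxcl16, which tethers CXCR6-bearing lymphocytes, at -0.53 ± 0.22 (limma, adjusted p = 0.429), Cxcl13, which draws B cells, at -0.02 ± 0.28, and Cxcl14 at -0.09 ± 0.40. In T-like cells the CXCL16 receptor gene Cxcr6 was at 8.99, 11.8 and 12.3 CP10K in WT and at 4.42 and 6.97 CP10K in SIRT7-/- mice, -0.97 ± 0.24 (limma, adjusted p = 0.234), lower in 2 of 2 SIRT7-/- mice. Ccr2, at -0.07 ± 0.32, and Cxcr3, the CXCL9 receptor gene, at -0.59 ± 0.27, also did not pass.

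In F13a1/Prss34 cells Ccr2 was at 3.69, 8.01 and 5.34 CP10K in WT and at 5.82, 9.39 and 4.92 CP10K in SIRT7-/- mice and overlapped. Xcr1 was at 0.677, 1.6 and 2.15 CP10K against 0.7, 0.755 and 0.796 CP10K, -0.79 ± 0.35 (limma, adjusted p = 0.733), and Cxcl10 was at 0.412, 0.389 and 1.16 CP10K against 1.37, 1.73 and 1.39 CP10K, 1.30 ± 0.36 (limma, adjusted p = 0.309). Of the NF-kB response genes, 0 of 15 passed in macrophage-like and 0 of 14 in F13a1/Prss34 cells, with 3 and 0 at an unadjusted p under 0.05 and median log2 differences of -0.02 and -0.20, beside -0.01 and -0.06 over all genes. Of the interferon gamma response genes 0 of 16 and 0 of 17 passed, with 1 and 0 at an unadjusted p under 0.05 and medians of 0.24 and 0.09. In T-like cells 0 of 14 and 0 of 18 passed, with 1 and 1 at an unadjusted p under 0.05 and medians of 0.20 and 0.19, beside -0.04 over all genes. In endothelial-like cells 0 of 17 interferon gamma response genes passed, with 4 at an unadjusted p under 0.05 and a median of 0.89 beside -0.05 over all genes.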

How the data were processed

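Livers of 3 WT and 3 SIRT7-/- mice were measured with 10x Chromium Single-Cell 3′ chemistry. Per the submitters' processing notes, reads were processed with Cell Ranger 6.0.0 against mm10. The authors removed cells with few genes or many mitochondrial reads, scaled each cell and deposited the natural log of CP10K plus 1. In the deposited natural log values, exp(x) - 1 summed to 10000 in each of 11610 cells, and all 12961041 values above 0 gave whole UMIs within 0.02. Each cell's mouse came from the ending of its barcode. The number of per-sample columns not used was 0.

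Cells were clustered with scanpy 1.11.5 and leidenalg 0.10.2 (Python 3.11.15) at resolution 1.0 on 1000 variable genes, 50 principal components and 3 neighbors from each mouse, with chemokine and receptor genes left out. A class was named "-like" with at least 3 of its fixed markers detected and a marker score clearly above that of the next class. Its leading genes could also not hold more markers of another class or be mainly cell cycle genes. Other clusters were called by their 2 leading genes outside the chemokine pathway, also where many markers of a class were detected. Scrublet marked 0.396% of cells, too few to trust, so all cells were kept and doublets may remain. Mice with at least 20 cells of a class entered its fit, where each genotype had at least 2 of them. NK-like, monocyte-like, conventional dendritic-like and neutrophil-like cells were fitted only with mice down to 10 cells. Their mean CP10K, raised by 0.05 and put on a log2 scale, was compared between genotypes by a two-sided moderated test of limma 3.58.1 under R 4.3.3, with a robust trend in the variances. A gene was tested if it averaged 0.05 CP10K or more, and p-values were adjusted by Benjamini-Hochberg over all genes of the class. The fits were tested on simulated data with log2 changes of 2. More of these were missed than found in B-like and endothelial-like cells, so counts of 0 there say little. Smaller changes were not simulated, so what a count of 0 means for them was not tested in any class. Fold changes of low genes are understated on this scale. Single-cell tests, which the study used, were replaced by tests over mice.

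The members and lists were chosen with earlier results of these data known. Genes named are the 10 members, Sirt7, the 3 most abundant other ligands and receptors of a compared class and any past the threshold, the 3 genes most like each member, and list medians, except 1 gene that is not reported here. Single markers of T and NK cells and the genes Ccr1, Ccr9 and Cxcl16 of the alternatives were named after their values were seen. Replicates are separate mice.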

Additional observations from a re-analysis of the deposited data

How the results depend on the processing

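Of 558 values of the 42 member differences under alternatives in the 6 compared classes, 532 kept the direction of the value reported. The number of members past the threshold was less stable. In macrophage-like cells it was 0 and became 1, Ccl24, with summed UMIs and voom weights and with the replicate block. It stayed 0 with each mouse left out in turn and when the Fabp7/Mmp12 cells were added to the class, an alternative chosen after seeing the data. In F13a1/Prss34 cells it was 0, became 1 (Ccl4) at Leiden resolution 0.35, and ranged from 0 to 1 with a mouse left out, the 1 being Ccl4 without SIRT7-/- mouse 2. In T-like cells it was 1 and became 0 with voom, with the mean of the natural log values and with mice down to 10 cells, and ranged from 0 to 2 with a mouse left out, 0 without WT mouse 1 or 2 and 2 without WT mouse 3 or SIRT7-/- mouse 2. In endothelial-like cells it was 0 and became 1, Ccl5, at a pseudocount of 0.5, with the natural log values and with the block, and ranged from 0 to 1, with 1 without WT mouse 2 or 3. In plasma cell-like cells it was 0, became 1 at a pseudocount of 0.5, with voom and with the natural log values and 2 with no filter, and ranged from 0 to 4, with 1 without WT mouse 2 and 4 without WT mouse 3. In B-like cells it was 0 throughout. The number of all genes past the threshold moved as well, with ranges given below, so nothing is read from these member counts. The cause was not tested.

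Of the other ligands and receptors, 0 passed in each class, but 1 (Ccr1) passed in macrophage-like cells with voom. With a mouse left out 0 to 1 passed in T-like and endothelial-like cells and 0 to 3 in plasma cell-like cells. The number of all genes past the threshold was 22, 2, 18, 28, 1 and 6 in macrophage-like, F13a1/Prss34, T-like, endothelial-like, B-like and plasma cell-like cells, and ranged from 1 to 254, from 0 to 141, from 0 to 383, from 2 to 258, from 0 to 27 and from 1 to 706 under alternatives. At Leiden resolution 0.35 no cluster was named T-like, so no T-like value could be given.

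The replicate number as a block gave 4 members in T-like cells (Ccl4, Ccl5, Ccl6 and Cxcl9) and 3 other pathway genes (Cxcl16, Ccr9 and Cxcr6). It gave 1 member in macrophage-like and in endothelial-like and 0 in F13a1/Prss34 cells. Under alternatives up to 383 of all genes passed in T-like cells, against 18 in the main fit, and nothing is read from these counts. Nothing in the labels ties mice of the same replicate number. Correlations of same-numbered mice ran from -0.14 to 0.19, which cannot show whether they shared a batch. No block could be fitted in B-like and plasma cell-like cells, which share too few numbers.

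In NK-like cells the log2 difference of Xcl1 with a mouse left out ran from 1.22 to 1.73, and Xcl1 did not pass the threshold without SIRT7-/- mouse 2, without SIRT7-/- mouse 3 or with the mean of the natural log values. In monocyte-like cells Ccl5 did not pass without SIRT7-/- mouse 3 or with the mean of the natural log values. The difference of Ccl4 in F13a1/Prss34 cells ran from 1.09 to 2.83 and that of Ccl2 from 0.72 to 2.61 under alternatives on the CP10K scale. Leaving out the cell of each mouse with the most UMIs of a gene was chosen after seeing the data. Depth limits Ccl2, Ccl3, Cxcl2 and Cxcl9, which rest on few UMIs per mouse and class.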
